A study of Homo sapiens with 30 samples.

Results

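Human embryonic stem cells of the RUES2 line that had met the BET inhibitor CPI-203 during the first day of differentiation were compared, on the second day, with cells that had not. The comparison rests on 4 of the 30 samples of the series, chosen by their labels and not by a measured value: 2 RNA-seq libraries labelled WNT_CPI_ACT and 2 labelled WNT_ACT. In WNT_CPI_ACT, day 1 brought Wnt3a (100 ng/mL) together with CPI-203 (1 µM), and day 2 brought Activin A (10 ng/mL). In WNT_ACT, day 1 brought Wnt3a alone and day 2 the same Activin A. Both groups were collected at 48 h, and both were grown in E7 medium with a ROCK inhibitor. The labels give the inhibitor for day 1 only, and whether any of it remained on day 2 was not measured. The corresponding pair at 24 h, WNT_CPI (Wnt3a with CPI-203) and WNT (Wnt3a alone), also with 2 libraries each, was used to set the day 2 values beside those of day 1. All cells are of 1 line. The labels do not say whether the replicates are separate cultures; the p-values therefore reflect the spread among these libraries alone, which may be technical.

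BET proteins such as BRD2 and BRD3 read acetylated histones and help RNA polymerase II to leave the start of genes, and inhibitors like CPI-203 occupy the pocket that binds the acetyl group. Pluripotent stem cells grow as an epithelium joined by E-cadherin and claudins. Wnt ligands start the programme of the primitive streak in them, and Activin, which signals through the same receptors as NODAL, takes streak cells towards mesendoderm and endoderm.

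The 4 libraries held 42708602 and 40331108 counts in WNT_CPI_ACT, and 39068796 and 37413711 in WNT_ACT. Levels are given in CPM, that is, scaled for library size but not for gene length, with replicate 1 before replicate 2. Differences are log2 fold changes of WNT_CPI_ACT over WNT_ACT with their standard error (SE), from edgeR's quasi-likelihood test with the replicate number as a block. A gene is called at an adjusted p (Benjamini-Hochberg over 17793 genes) under 0.05. At 48 h 3590 genes were called, 20.2% of those tested: 1446 were higher (8.13%) and 2144 lower (12%), and 1585 (8.91%) differed at least 2-fold. Without the block 648 genes (3.64%) were called, and all 648 were also called with it. Every group holds 2 libraries, and leaving out 1 changed the count: 1773 genes were called without replicate 2 of WNT_CPI_ACT, 2317 without replicate 1 of WNT_ACT and 2255 without its replicate 2. One RNA library of another group was left out because its column does not follow the gene order of its table, and on chromosome 22 the files hold no count for 625 of 626 genes.

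The stem cell markers were present in all 4 libraries. LIN28A, an RNA-binding protein of pluripotent cells, stood at 1642 and 2204 CPM in WNT_CPI_ACT and at 1540 and 2165 CPM in WNT_ACT. DPPA4 stood at 696 and 785 CPM in WNT_CPI_ACT and at 642 and 807 CPM in WNT_ACT. Neither was called, and the groups overlapped for both. Other stem cell markers did differ: POU5F1 was called lower (-0.431) and SOX2 higher (0.815), as described with the pluripotency genes. The mesendoderm markers TBXT, EOMES and MIXL1 were present in WNT_ACT and are described with the streak genes. Of the markers given for this comparison, CLDN7 and CDH1 were lower and GBX2 and SOX9 higher in WNT_CPI_ACT.

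Among the 22 gene lists examined, that of epithelial genes, which is also the longest, held the most called members, with and without the replicate block. By share, 75% of its tested genes were called, after the 77.8% of the HOX list. The HOX share rests in part on genes that can be tested through their level in WNT_CPI_ACT alone. Of 32 genes for junctions and epithelial regulators, all tested, 24 were lower in WNT_CPI_ACT and none was higher, against 12% lower and 8.13% higher among all genes. The list's median log2 fold change was -1.47, against 0.005 over all genes tested. Of the 24, 19 were at least 2-fold lower, and 16 were still called without the block. For 23 of them the groups did not overlap, as for 84.7% of all called genes and 37.8% of all genes.

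CLDN7, a claudin that seals tight junctions, was the gene with the largest fall among those named. It stood at 1.61 and 2.87 CPM in WNT_CPI_ACT, against 63.4 and 108 CPM in WNT_ACT. The groups lay far apart in both replicate pairs, and the log2 fold change was -5.27 (SE 0.16, adjusted p = 8.9e-08; 0.0049 without the block). CLDN4, another claudin of tight junctions, had 0.344 and 1.84 CPM in WNT_CPI_ACT, against 6.50 and 34.4 CPM in WNT_ACT. Replicate 2 was the higher one in each group, yet both WNT_CPI_ACT values lay below both WNT_ACT values (-4.12, SE 0.43, adjusted p = 0.000178; 0.058 without the block, which ends the call). CLDN6, a claudin typical of pluripotent cells, had 404 and 629 CPM in WNT_CPI_ACT and 369 and 584 CPM in WNT_ACT. Its groups overlapped, and it was not called (adjusted p = 0.276).

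CDH1, which encodes E-cadherin, the adhesion molecule of epithelial adherens junctions, had 97.1 and 124 CPM in WNT_CPI_ACT, against 350 and 490 CPM in WNT_ACT. The groups did not overlap, with a log2 fold change of -1.92 (SE 0.13, adjusted p = 1.32e-05; 0.0014 without the block). EPCAM, an adhesion protein of epithelia, had 75.3 and 60.3 CPM in WNT_CPI_ACT and 189 and 215 CPM in WNT_ACT (-1.57, SE 0.11, adjusted p = 1.32e-05). ST14, the membrane protease matriptase, had 6.27 and 9.49 CPM in WNT_CPI_ACT and 45.2 and 76.4 CPM in WNT_ACT. ST14 was thus lower in both pairs (-2.93, SE 0.12, adjusted p = 5.68e-07), and so was MARVELD3, a tight junction protein (-2.47, SE 0.18, adjusted p = 1.92e-05). CRB3, a Crumbs protein that sets apical polarity, had 2.20 and 1.89 CPM in WNT_CPI_ACT and 6.96 and 12.4 CPM in WNT_ACT (-2.16, SE 0.23, adjusted p = 0.000199).

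Of the 6 epithelial regulators in the list 5 fell. GRHL2, a Grainyhead transcription factor of epithelia, had 8.91 and 8.45 CPM in WNT_CPI_ACT, against 41.8 and 52.8 CPM in WNT_ACT (-2.44, SE 0.12, adjusted p = 1.63e-06). OVOL1 and OVOL2, zinc finger repressors of the mesenchymal programme, changed by -3.91 (SE 0.27) and -3.50 (SE 0.23). ESRP1 and ESRP2, which direct epithelial splicing, changed by -1.56 and -1.63 (SE 0.10 each). These 5 regulators were called with and without the block, and none had overlapping groups. The sixth, GRHL1, another Grainyhead factor, had 2.66 and 2.87 CPM in WNT_CPI_ACT and 3.65 and 2.67 CPM in WNT_ACT. Its groups overlapped, and it was not called (-0.15, SE 0.22, adjusted p = 0.666), whereas at 24 h it was higher in WNT_CPI than in WNT (1.66, adjusted p = 6.59e-05). The keratins in this list (KRT8, KRT18 and KRT19) differed little. KRT19 was lower, with 60.6 and 76.0 CPM in WNT_CPI_ACT and 77.5 and 105 CPM in WNT_ACT (-0.41, SE 0.11, adjusted p = 0.0258; 0.43 without the block). KRT19 was not called without replicate 1 (-0.40) or 2 (-0.43) of WNT_CPI_ACT or without replicate 2 of WNT_ACT (-0.31). KRT8 had 313 and 620 CPM in WNT_CPI_ACT and 277 and 457 CPM in WNT_ACT, and neither KRT8 nor KRT18 was called (adjusted p = 0.0947 and 0.0912). Both were called higher in a fit of only the groups compared (0.32 each), and KRT8 also without replicate 1 of WNT_CPI_ACT (0.49). The count of lower epithelial genes was 21 to 24 in each fit that left out 1 of the 4 libraries.

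**Figure D1:**
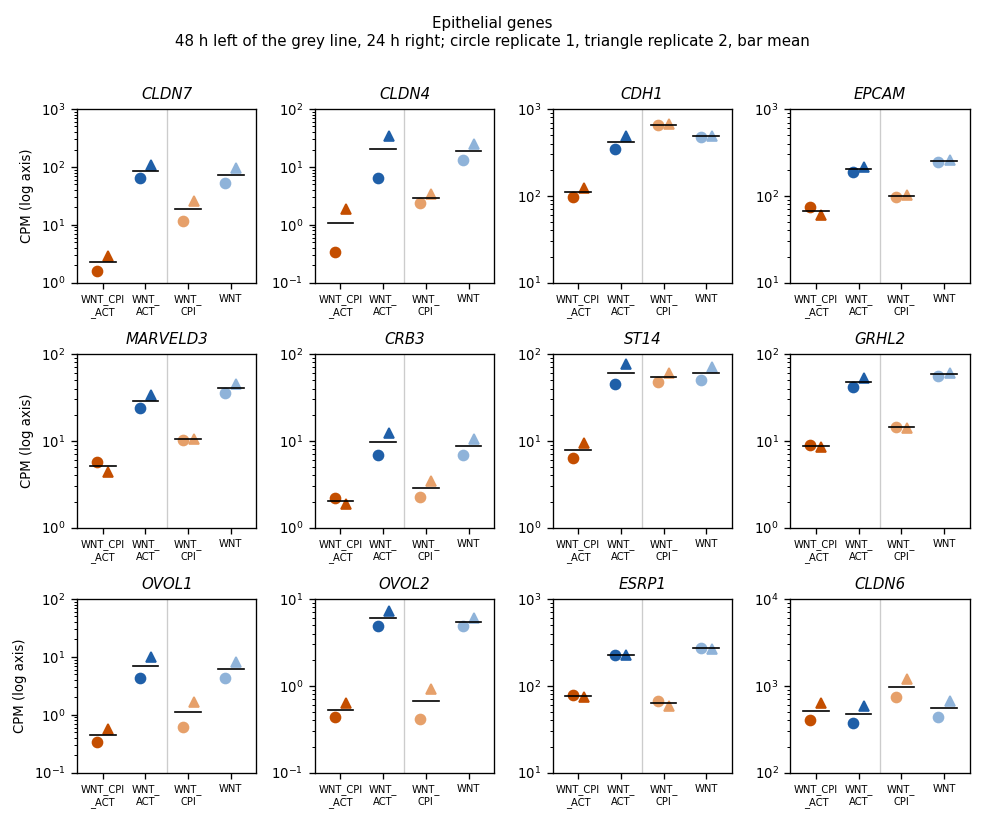
CPM (log axis) of 12 epithelial genes in the 4 groups, with 48 h left of the grey line and 24 h right of it; circles are replicate 1, triangles replicate 2 and bars the mean of both. In 11 of the panels both WNT_CPI_ACT points lie below both WNT_ACT points, while those of CLDN6 overlap.

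Promoter sequences from the RefSeq table (build GRCh38.p14) are shown for 3 of the lowered junction genes because one E-box, CAGGTG, is the sequence bound by the SNAIL and ZEB repressors described next. The motif was searched as CAGGTG and as its reverse complement CACCTG, in the 250 bases before each start. Of the 24 lowered genes 6 had an entry (CLDN3, CLDN4, CLDN7, OCLN, CRB3 and SPINT1), and 4 of them held the motif (CLDN7, OCLN, CRB3 and SPINT1). It was present in 17.5% of 35116 promoters in the table and in at least 1 listed promoter of 21.4% of the 13696 tested genes with an entry. Matches are in capitals, a match is a description of the letters and not a bound site, and the genes were chosen after their values were seen. CRB3 (chr19:6464021-6464270, plus strand) had 5 matches, CLDN4 (chr7:73830746-73830995, plus strand) had none, and the stretch of CLDN7 (chr17:7262479-7262508, minus strand), the last 30 bases before the inner of its listed starts, had 2. The whole window of that start of CLDN7 had 4, and the window of its outer start had none.
CRB3: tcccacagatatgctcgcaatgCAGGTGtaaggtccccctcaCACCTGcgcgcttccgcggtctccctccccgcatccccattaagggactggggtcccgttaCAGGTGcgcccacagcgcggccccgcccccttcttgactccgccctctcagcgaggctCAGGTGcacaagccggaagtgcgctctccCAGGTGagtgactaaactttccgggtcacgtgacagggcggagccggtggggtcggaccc
CLDN4: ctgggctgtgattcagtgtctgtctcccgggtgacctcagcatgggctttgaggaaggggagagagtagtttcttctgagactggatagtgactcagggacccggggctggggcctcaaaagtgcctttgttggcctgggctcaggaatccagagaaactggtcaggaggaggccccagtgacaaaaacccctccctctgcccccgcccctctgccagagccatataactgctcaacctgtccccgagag
CLDN7: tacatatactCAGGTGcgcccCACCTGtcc

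Mesenchymal genes did not move as 1 group. Of 18 tested, 6 were higher and 4 lower in WNT_CPI_ACT, with a median of -0.25. Among all genes 8.13% were higher and 12% lower. VIM, the intermediate filament vimentin, had 335 and 387 CPM in WNT_CPI_ACT, against 46.2 and 25 CPM in WNT_ACT. VIM did not overlap between the groups (3.31, SE 0.38, adjusted p = 0.00031; 0.0055 without the block). Repressors of E-cadherin differed in direction. SNAI2 (SLUG) had 5.90 and 6.19 CPM in WNT_CPI_ACT and 0.719 and 0.397 CPM in WNT_ACT (3.42, SE 0.38, adjusted p = 0.00027). ZEB2 had 48.3 and 44.4 CPM in WNT_CPI_ACT and 6.16 and 0.423 CPM in WNT_ACT (4.49, SE 0.81, adjusted p = 0.00362; 0.19 without the block). ZEB1 rose too (2.96, SE 0.67, adjusted p = 0.0112; 0.24 without the block), and replicate 2 of WNT_ACT held the lowest level of both ZEB genes. SNAI1, in contrast, fell, with 5.05 and 6.75 CPM in WNT_CPI_ACT against 14.5 and 12.7 CPM in WNT_ACT (-1.24, SE 0.19, adjusted p = 0.0018; 0.052 without the block). CDH2, or N-cadherin, which replaces E-cadherin in mesenchymal cells, had 407 and 245 CPM in WNT_CPI_ACT and 381 and 156 CPM in WNT_ACT and was not called (adjusted p = 0.477), though without replicate 1 of WNT_ACT it was called higher (0.95). CDH11 and MMP2 were higher and MMP14, SPARC and TWIST2 lower. SPARC was not called without replicate 2 of WNT_CPI_ACT (-0.45) or replicate 1 of WNT_ACT (-0.30), nor TWIST2 without replicate 2 of WNT_CPI_ACT (-1.62) or of WNT_ACT (-1.35).

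Genes of the anterior streak and endoderm were lower in WNT_CPI_ACT, with a large spread between replicates. Of 16 tested, 10 were lower and none higher, against 12% and 8.13% of all genes. The median log2 fold change was -2.16. Of the 10, 9 had groups that did not overlap, as had 84.7% of all called genes. None of the 10 was called without the block, where their adjusted p ran between 0.0614 and 0.458. The count of 10 fell to 2 without replicate 1 of WNT_ACT and was 7 without replicate 2 of WNT_CPI_ACT. In this bulk RNA, fewer cells of a type and less RNA per cell cannot be told apart.

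GATA6, a GATA factor of early endoderm, had 9.69 and 0.0486 CPM in WNT_CPI_ACT, against 143 and 11.0 CPM in WNT_ACT. Replicate 1 was the higher one in both groups, and the WNT_ACT value of replicate 2 was close to the WNT_CPI_ACT value of replicate 1 (-4.15, SE 0.79, adjusted p = 0.00462; 0.23 without the block). GSC, or goosecoid, a homeobox gene of the organizer, had 3.49 and 0.0243 CPM in WNT_CPI_ACT, against 67.7 and 8.01 CPM in WNT_ACT (-4.55, SE 0.80, adjusted p = 0.00318; 0.14 without the block). FOXA2, a forkhead factor of endoderm, had 11.7 and 0.121 CPM in WNT_CPI_ACT, against 83.8 and 30.0 CPM in WNT_ACT (-3.67, SE 0.86, adjusted p = 0.0135; 0.27 without the block). SOX17, which drives definitive endoderm, had 5.99 CPM and no count in WNT_CPI_ACT, against 41.6 and 7.56 CPM in WNT_ACT. These 4 genes shared that order of replicates, and for each both WNT_CPI_ACT values lay under both WNT_ACT values. SOX17 changed by -3.69 (SE 0.82, adjusted p = 0.015; 0.43 without the block). CER1, a secreted antagonist of NODAL, BMP and Wnt, had 138 CPM and no count in WNT_CPI_ACT, against 1974 and 123 CPM in WNT_ACT. Its groups overlapped, and it was called only with the block (-4.41, SE 1.24, adjusted p = 0.0332; 0.46 without it). Without replicate 1 of WNT_ACT the values of GATA6, GSC, FOXA2, SOX17, CER1 and HHEX were -3.38, -3.67, -3.77, -5.45, -3.60 and -2.66, and none of the 6 was called. CER1 was likewise not called without replicate 2 of WNT_CPI_ACT (-3.24) or of WNT_ACT (-4.63), nor was SOX17 without replicate 2 of WNT_ACT (-3.02).

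Of 15 streak and early mesoderm genes tested, 4 were lower and 2 higher, against 12% and 8.13% of all genes. Their median was -0.55, and none was called without the block. TBXT, or brachyury, the classical streak factor, had 11.3 and 0.316 CPM in WNT_CPI_ACT, against 79.4 and 30.6 CPM in WNT_ACT (-3.54, SE 0.78, adjusted p = 0.0099; 0.15 without the block). MIXL1, a homeobox gene of mesendoderm, had 66.9 and 2.45 CPM in WNT_CPI_ACT, against 795 and 105 CPM in WNT_ACT (-3.82, SE 1.00, adjusted p = 0.0221; 0.17 without the block). Neither overlapped, whereas EOMES did. EOMES, a T-box factor upstream of endoderm, had 169 and 33.5 CPM in WNT_CPI_ACT, against 482 and 84.0 CPM in WNT_ACT (-1.45, SE 0.43, adjusted p = 0.036; 0.55 without the block). The LIM homeobox gene LHX1 was the other lower member (-3.42, SE 0.90, adjusted p = 0.0222; 0.22 without the block). The higher members were CDX2, a posterior homeobox gene, with 2.20 and 0.437 CPM in WNT_CPI_ACT against 0.0257 and 0.0793 CPM in WNT_ACT (4.46, SE 0.67, adjusted p = 0.0015; 0.066 without the block), and MESP2, which stayed below 1 CPM in each library and was not called in any of the 4 fits that left out 1 of the libraries (1.05 to 1.91). TBXT (-3.38), MIXL1 (-2.16), EOMES (-0.71) and LHX1 (-2.95) were not called without replicate 1 of WNT_ACT, and MIXL1 (-2.86) and EOMES (-1.04) were not called without replicate 2 of WNT_CPI_ACT.

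**Figure D2:**
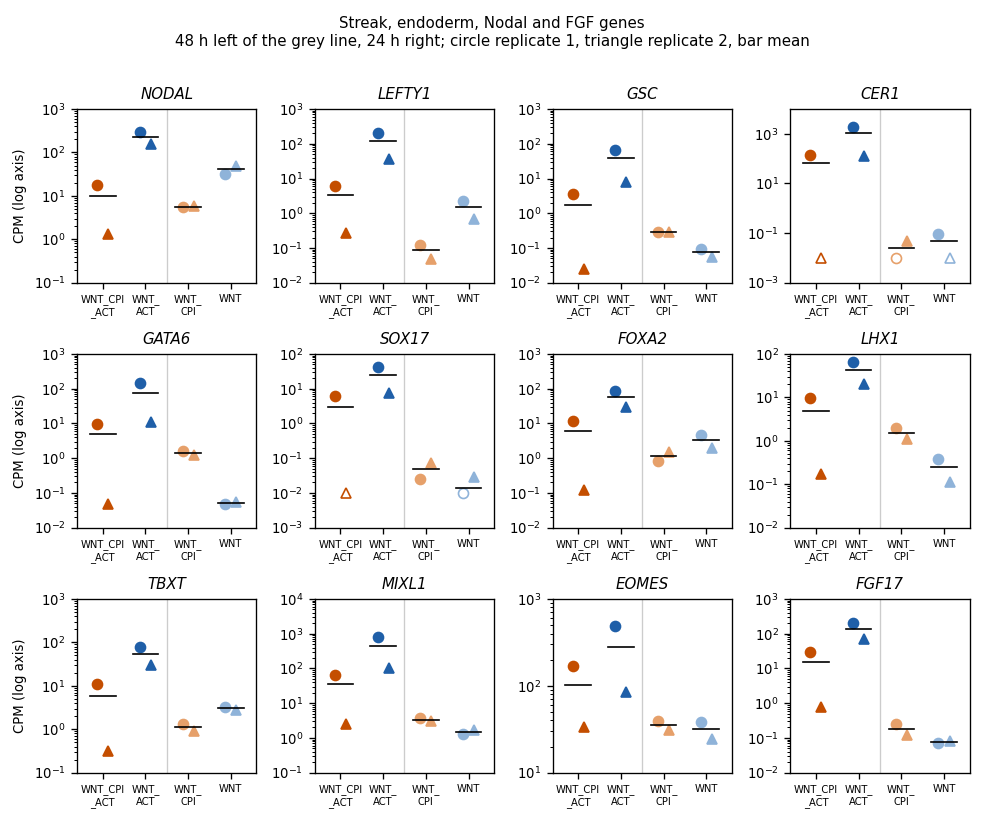
CPM (log axis) of 12 streak, endoderm and signalling genes in the 4 groups, with 48 h left of the grey line and 24 h right of it; circles are replicate 1, triangles replicate 2, bars the mean of both, and open symbols a library with no count. At 48 h the replicate 1 point lies above the replicate 2 point within both groups, as for GATA6 (9.69 and 0.0486 CPM in WNT_CPI_ACT, 143 and 11.0 CPM in WNT_ACT).

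Against 12% lower and 8.13% higher among all genes, several genes of the Activin and NODAL pathway were lower as well, among them the ligand NODAL. Of 13 tested, 7 were lower and 1 higher (median -1.38), 1 in each direction was called without the block, and 2 were lower without replicate 1 of WNT_ACT. NODAL, the ligand that maintains its own transcription in the streak, had 18.2 and 1.31 CPM in WNT_CPI_ACT, against 303 and 153 CPM in WNT_ACT (-4.59, SE 0.98, adjusted p = 0.00854; 0.059 without the block). LEFTY1, a secreted NODAL antagonist and itself a NODAL target, had 6.25 and 0.267 CPM in WNT_CPI_ACT, against 198 and 36.7 CPM in WNT_ACT (-5.13, SE 1.10, adjusted p = 0.00893; 0.10 without the block). Reads of LEFTY1 and its near copy LEFTY2 may be divided between them, so LEFTY1 is uncertain. LEFTY2 was not called (-1.38, SE 1.14, adjusted p = 0.434), and its groups overlapped. NODAL and LEFTY1 did not overlap between the groups, and without replicate 1 of WNT_ACT their values of -4.0 and -3.82 were not called. PMEPA1, a feedback inhibitor of SMAD signalling, had 14.2 and 11.1 CPM in WNT_CPI_ACT, against 77.5 and 58.6 CPM in WNT_ACT (-2.43, SE 0.39, adjusted p = 0.00216; 0.023 without the block). FOXH1, the partner of SMAD2 in NODAL targets, was lower (-1.31, SE 0.16, adjusted p = 0.000544; 0.098 without the block). The gene that went the other way was FST, follistatin, which binds and neutralises Activin. FST had 513 and 585 CPM in WNT_CPI_ACT, against 85.5 and 70.0 CPM in WNT_ACT, groups far apart in both pairs (2.85, SE 0.31, adjusted p = 0.000231; 0.0073 without the block).

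The other signalling lists were mixed, beside 12% lower and 8.13% higher among all genes. Of 16 FGF and MAPK feedback genes, 6 were lower and 3 higher (median 0.01), and 2 were lower without replicate 1 of WNT_ACT. FGF17, a streak ligand, had 30.0 and 0.801 CPM in WNT_CPI_ACT and 204 and 71.3 CPM in WNT_ACT (-4.08, SE 0.64, adjusted p = 0.00184; 0.20 without the block). FGF4 and FGF8, ligands of the pluripotent epiblast and the streak, changed by -4.29 (SE 0.97) and -4.72 (SE 1.08), and neither was called without the block or without replicate 1 of WNT_ACT (-2.66 and -4.32). DUSP6, a phosphatase that ERK signalling induces, was higher, with 257 and 433 CPM in WNT_CPI_ACT against 155 and 198 CPM in WNT_ACT (0.95, SE 0.17, adjusted p = 0.00355; 0.077 without the block). Of 13 BMP targets 5 were lower and 1 higher. ID1, a helix-loop-helix inhibitor, fell (-1.40, SE 0.24, adjusted p = 0.00284; 0.26 without the block), whereas ID2 had 93.8 and 95.3 CPM in WNT_CPI_ACT and 42.3 and 36 CPM in WNT_ACT (1.28, SE 0.10, adjusted p = 4.4e-05; 0.014 without the block). BMP targets called lower were 1 without replicate 2 of WNT_CPI_ACT and 2 without replicate 1 of WNT_ACT.

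Of 16 Wnt targets 4 were higher and 3 lower (median 0.21), against 8.13% higher and 12% lower among all genes. AXIN2, the standard readout of Wnt signalling, had 82.3 and 69.8 CPM in WNT_CPI_ACT and 87.3 and 58.1 CPM in WNT_ACT and was not called (adjusted p = 0.829). LEF1, a transcription factor that carries the Wnt signal, had 14.1 and 19.5 CPM in WNT_CPI_ACT and 3.93 and 2.80 CPM in WNT_ACT (2.42, SE 0.36, adjusted p = 0.00137; 0.051 without the block). RNF43, a ligase that removes Wnt receptors, had 15.6 and 23.2 CPM in WNT_CPI_ACT and 6.11 and 7.93 CPM in WNT_ACT (1.46, SE 0.27, adjusted p = 0.00376; 0.031 without the block). Both were thus higher in each pair without overlap. NOTUM, an enzyme that inactivates Wnt ligands, was lower (-2.53, SE 0.41, adjusted p = 0.0023; 0.023 without the block).

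The 12 largest rises included the transcription factor genes GBX2, OLIG3, IRX1, MEIS2 and ZEB2 and the neuronal genes STMN2 and ISLR2. The lists of neuroectoderm and neuronal genes each held as many lower as higher members. A rise here is a difference from WNT_ACT at 48 h, and some of these genes were present at 24 h without the inhibitor. In WNT, GBX2 had 63.9 and 56.7 CPM, IRX1 8.58 and 14.6 CPM and HOTAIRM1 7.75 and 7.28 CPM. ISLR2 (1.13 and 1.10 CPM) and GREB1L (0.705 and 0.674 CPM) were low in WNT. HOTAIRM1, a long noncoding RNA, had 12.2 and 30.6 CPM in WNT_CPI_ACT and 0.205 and 0.688 CPM in WNT_ACT (5.59, SE 0.83, adjusted p = 0.00143; 0.017 without the block). Replicate 2 held the higher value within both groups, which lay far apart. Of 17 HOX genes 9 were tested, and 7 of them were higher and none lower, against 8.13% and 12% of all genes. HOXB8, HOXB9 and HOXD4 held 40 and 2, 80 and 1, and 16 and 0 counts in WNT_CPI_ACT, and no more than 1 in any WNT_ACT library. Such genes can pass the filter for tested genes through the group where they are high alone. The HOX count and the medians that follow are therefore no evidence of a direction. The fitted median was 5.62, or 3.66 when the genes with no count in WNT_ACT are put at their lower bound of 3 counts over the group. With counts pooled over both libraries, that bound gave 14.8-fold for HOXB3 and 12.7-fold for HOXB8 in WNT_CPI_ACT. HOXB3 had 38 and 11 counts there and HOXB8 40 and 2, so the HOXB8 value rests almost wholly on replicate 1. These folds are no evidence of a direction either. Of the 7, 1 was called without the block, and 1 HOX gene was higher without replicate 1 of WNT_ACT, 3 without its replicate 2, 4 without replicate 1 of WNT_CPI_ACT and 3 under the DESeq2 Wald test. HOXB8 (4.42), HOXB3 (6.29), HOXB1 (1.67) and HOXD1 (3.20) were among those not called without replicate 1 of WNT_ACT. HOXB1 was also not called without replicate 2 of WNT_CPI_ACT (1.08) or of WNT_ACT (1.79), nor was HOXD1 without replicate 1 of WNT_CPI_ACT (2.18) or replicate 2 of WNT_ACT (2.19).

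GBX2, a homeobox gene of the posterior epiblast and hindbrain border, had 91.5 and 173 CPM in WNT_CPI_ACT, against 3.34 and 4.97 CPM in WNT_ACT. The groups were far apart (5.01, SE 0.61, adjusted p = 0.000465; 0.0057 without the block). SOX9, a factor of neural crest and other progenitors, had 23.6 and 96.5 CPM in WNT_CPI_ACT, against 3.06 and 6.4 CPM in WNT_ACT (3.62, SE 0.61, adjusted p = 0.00275; 0.023 without the block). STMN2, a microtubule regulator of growing neurons, had 27.5 and 101 CPM in WNT_CPI_ACT, against 0.642 and 0.926 CPM in WNT_ACT (6.31, SE 0.66, adjusted p = 0.000193; 0.0029 without the block). None of the 3 overlapped, and replicate 2 was the higher one within each group. ISLR2, a membrane protein of axon growth, had 16.3 and 45.6 CPM in WNT_CPI_ACT, against 0.462 and 0.688 CPM in WNT_ACT (5.72, SE 0.70, adjusted p = 0.0005). Its extent contains the noncoding LOC283731, which was higher too (5.91, SE 0.92). Strand-specific counting is not stated in the sources used here, so reads of these overlapping genes cannot be told apart.

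OLIG3, a dorsal neural factor, had 1.01 and 12.1 CPM in WNT_CPI_ACT, against 0.0513 and 0.0793 CPM in WNT_ACT (6.35, SE 1.51, adjusted p = 0.0144; 0.049 without the block). It was not called without replicate 2 of WNT_CPI_ACT (3.84) or without replicate 1 (6.40) or 2 (6.29) of WNT_ACT. IRX1, an Iroquois homeobox gene, had 5.97 and 28.9 CPM in WNT_CPI_ACT and 0.719 and 1.61 CPM in WNT_ACT (3.80, SE 0.72, adjusted p = 0.00469). GREB1L, a regulator of embryonic patterning, had 9.18 and 11.0 CPM in WNT_CPI_ACT and 0.334 and 0.159 CPM in WNT_ACT (5.40, SE 0.55, adjusted p = 0.000167). The groups of these 3 genes did not overlap, but the WNT_CPI_ACT replicates of OLIG3 lay far from each other. MEIS2, a homeobox partner of HOX proteins, had 1.38 and 9.81 CPM in WNT_CPI_ACT and 0.205 and 0.106 CPM in WNT_ACT (5.28, SE 1.31, adjusted p = 0.0174; 0.067 without the block). MEIS2 was not called without replicate 2 of WNT_CPI_ACT (2.66) or without replicate 1 (5.63) or 2 (5.03) of WNT_ACT. SPATA31A7 was also among the 12 largest rises, but it has near-identical copies and is uncertain.

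**Figure D3:**
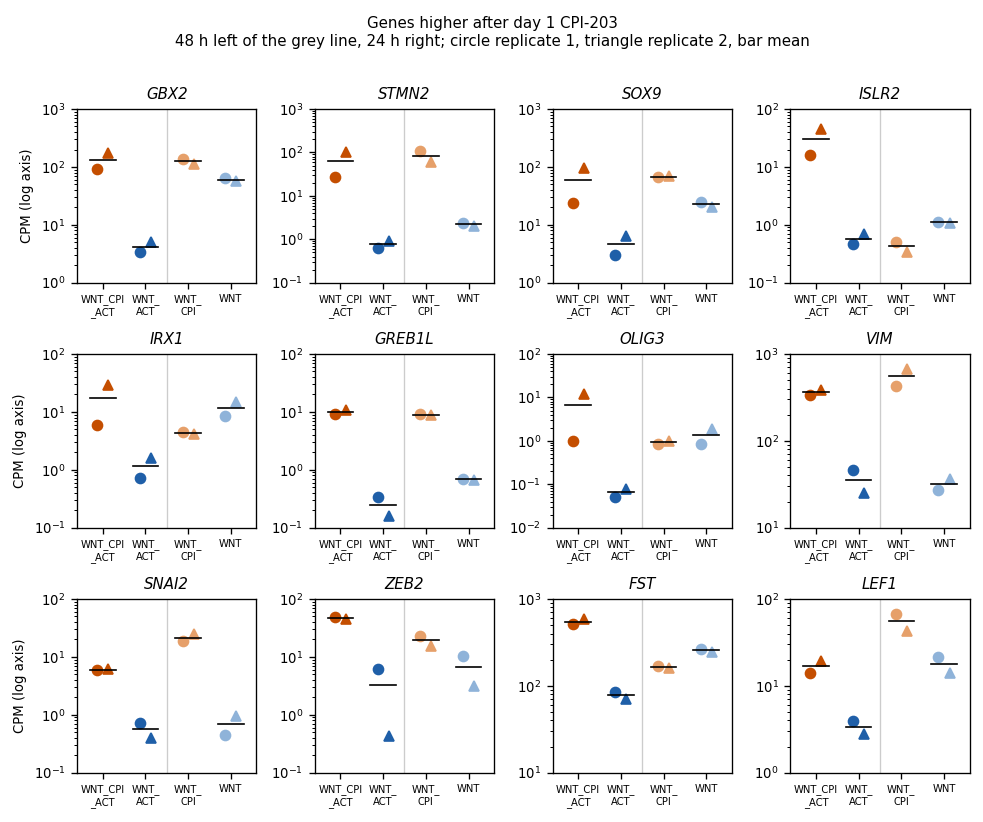
CPM (log axis) of 12 genes that were higher in WNT_CPI_ACT than in WNT_ACT, with 48 h left of the grey line and 24 h right of it; circles are replicate 1, triangles replicate 2 and bars the mean of both. Both WNT_CPI_ACT points lie above both WNT_ACT points in each panel, as for GBX2 (91.5 and 173 CPM against 3.34 and 4.97 CPM).

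Further markers of neural and other cell types were counted in lists of their own. The called shares of these lists ran from 20% (fibroblast) to 33.3% (neuronal and secretory), against 20.2% of all genes tested. Of 16 neuroectoderm genes tested, 2 were higher (GBX2 and POU3F2) and 2 lower (ZIC2 and RAX). POU3F2, or BRN2, a neural POU factor, had 2.23 and 1.80 CPM in WNT_CPI_ACT and 0.231 and 0.159 CPM in WNT_ACT (3.35, SE 0.45, adjusted p = 0.000829). PAX6, a defining factor of neuroectoderm, had 0.0459 and 0.0486 CPM in WNT_CPI_ACT and 0.128 CPM and no count in WNT_ACT. Of 12 neuronal and secretory genes, 2 were higher (STMN2 and VGF) and 2 lower (SYP and SCG3), and the summed level of the whole list of 13 (tested or not, as for the lists that follow) was 569 and 774 CPM in WNT_CPI_ACT and 512 and 599 CPM in WNT_ACT. Of 8 neural crest genes 2 were higher (SOX9 and TFAP2A), with sums of 66.1 and 128 CPM in WNT_CPI_ACT and 65.6 and 94.8 CPM in WNT_ACT. SOX10 and TFAP2B, which define migrating crest, were at 0 in all 4 libraries; SOX10 lies on chromosome 22, where almost no gene has a count. Of 5 fibroblast genes 1 was higher (POSTN), with sums of 498 and 614 CPM in WNT_CPI_ACT and 430 and 710 CPM in WNT_ACT and with DCN and FAP at 0. Of 9 trophoblast and amnion genes 2 were lower (GATA2 and GABRP), with sums of 20.8 and 30.5 CPM in WNT_CPI_ACT and 20.7 and 38.5 CPM in WNT_ACT. Single libraries decided some of these calls. VGF was not called without replicate 1 (1.36) or 2 (1.58) of WNT_CPI_ACT or replicate 1 of WNT_ACT (1.07), and TFAP2A not without replicate 2 of WNT_CPI_ACT (1.55) or replicate 1 (2.78) or 2 (1.55) of WNT_ACT. POSTN was not called without replicate 1 of WNT_CPI_ACT (1.37) or replicate 2 of WNT_ACT (1.71). RAX was not called without replicate 2 of WNT_CPI_ACT (-1.91) or replicate 1 (-2.45) or 2 (-2.88) of WNT_ACT, nor GATA2 without replicate 1 (-2.39) or 2 (-2.92) of WNT_CPI_ACT or replicate 2 of WNT_ACT (-1.61). The part of other cell types in the results was not tested.

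The day 2 differences were then set beside those of day 1, when CPI-203 was present. At 24 h, 9417 genes (52.9%) were called between WNT_CPI and WNT: 4432 higher (24.9%) and 4985 lower (28.0%). Of the 1446 genes higher at 48 h, 725 (50.1%) were also higher at 24 h, which is 16.4% of the genes higher at 24 h, while 242 (16.7%) were lower at 24 h and 479 were not called. Of the 2144 lower at 48 h, 1212 (56.5%) were also lower at 24 h, which is 24.3% of those lower at 24 h, while 228 (10.6%) were higher at 24 h and 704 were not called. The difference itself changed between the days for 5923 genes (33.3%), by a test of the change.

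The pluripotency genes, of which 19 of 22 were lower at 24 h, had smaller differences at 48 h in most cases: 5 were lower, 2 higher and 15 not called. Among all genes 28.0% were lower at 24 h, and 12% were lower and 8.13% higher at 48 h. For 16 of the 19 a change between the days against the 24 h direction was called, as it was for 57.1% of all genes lower at 24 h. NANOG, a core pluripotency factor, had 91.7 and 93.6 CPM in WNT_CPI_ACT, against 187 and 251 CPM in WNT_ACT at 48 h (-1.21, SE 0.16, adjusted p = 0.000829; 0.077 without the block). At 24 h NANOG had 1.23 and 1.32 CPM in WNT_CPI, against 138 and 197 CPM in WNT, a log2 fold change of -7.03. The groups were apart on both days, and the difference was smaller by 5.82 at 48 h (adjusted p = 8.7e-07). POU5F1, or OCT4, had 552 and 558 CPM in WNT_CPI_ACT and 690 and 815 CPM in WNT_ACT (-0.43, SE 0.08, adjusted p = 0.0054; 0.25 without the block), and it was not called without replicate 2 of WNT_CPI_ACT (-0.31). SOX2 had 394 and 402 CPM in WNT_CPI_ACT and 155 and 318 CPM in WNT_ACT (0.81, SE 0.18, adjusted p = 0.00919; 0.24 without the block), and it was not called without replicate 1 of WNT_CPI_ACT (0.61). POU5F1 and NANOG have retrocopies in the genome and are uncertain for that reason. CRIPTO, the NODAL co-receptor, had 341 and 346 CPM in WNT_CPI_ACT and 613 and 783 CPM in WNT_ACT (-0.98, SE 0.21, adjusted p = 0.00796; 0.33 without the block), and it was not called without replicate 1 of WNT_ACT (-0.78).

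Genes known to rise under BET inhibition in other cells behaved in a like manner. All 12 that were tested were higher at 24 h, against 24.9% of all genes. At 48 h 4 of the 12 were higher and none was lower, against 8.13% and 12% of all genes. For 11 a change between the days against the 24 h direction was called, as it was for 50.2% of all genes higher at 24 h. HEXIM1, an inhibitor of P-TEFb often used as a readout of BET inhibition, had 81.7 and 98.1 CPM in WNT_CPI_ACT and 80.0 and 77.2 CPM in WNT_ACT at 48 h. HEXIM1 was not called at that time (0.18, SE 0.10, adjusted p = 0.217), although its groups did not overlap. At 24 h it had 295 and 311 CPM in WNT_CPI, against 70.0 and 85.7 CPM in WNT (1.97, adjusted p = 2.4e-07). The histone gene H2BC5 stayed higher, with 15.9 and 13 CPM in WNT_CPI_ACT against 4.26 and 3.09 CPM in WNT_ACT (1.98, SE 0.11, adjusted p = 5.84e-06; 0.0027 without the block), beside 145 and 123 CPM in WNT_CPI and 2.96 and 2.92 CPM in WNT. Its coding sequence has near-identical copies, so H2BC5 is uncertain. Of 13 BET and P-TEFb genes 1 was called (7.69%, against 20.2% of all genes tested). It was ELL2, an elongation factor (-1.77, SE 0.31, adjusted p = 0.00336). MYC, often repressed by BET inhibitors, had 34.4 and 29.5 CPM in WNT_CPI_ACT and 85.7 and 96.1 CPM in WNT_ACT (-1.47, SE 0.27, adjusted p = 0.00396; 0.12 without the block), but 129 and 242 CPM in WNT_CPI and 57.7 and 87.9 CPM in WNT (1.32, adjusted p = 0.0018). The MYC difference thus had opposite signs on the days, and its change was called (-2.79, adjusted p = 0.00034).

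Among the epithelial genes, the difference was mostly present on day 1. Of the 24 lower at 48 h, 18 were already lower at 24 h and 2 (CDH1 and KRT19) were higher then. Among all genes lower at 48 h these shares were 56.5% and 10.6%. CDH1 had 650 and 667 CPM in WNT_CPI and 479 and 489 CPM in WNT at 24 h (0.45, adjusted p = 0.012), and its change between the days was -2.37 (adjusted p = 1e-05). CLDN7 had 11.7 and 25.9 CPM in WNT_CPI and 52.0 and 95.1 CPM in WNT at 24 h (-2.0), and its difference grew by -3.27 on day 2 (adjusted p = 2.7e-06). ST14 was not called at 24 h (-0.15, adjusted p = 0.25), and its change was -2.79 (adjusted p = 1.5e-06). GBX2 and ISLR2 were not called at 24 h either (1.05 and -1.37), and their changes between the days were 3.96 and 7.09. GBX2 already stood at 139 and 111 CPM in WNT_CPI. Its WNT levels of 63.9 and 56.7 CPM were far above the 3.34 and 4.97 CPM of WNT_ACT. ISLR2, in contrast, stood at 0.51 and 0.34 CPM in WNT_CPI, below the 16.3 and 45.6 CPM of WNT_CPI_ACT. VIM and STMN2 were higher on both days, and their differences at 24 h of 4.12 and 5.25 had no called change between the days (adjusted p = 0.24 and 0.38).

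**Figure D4:**
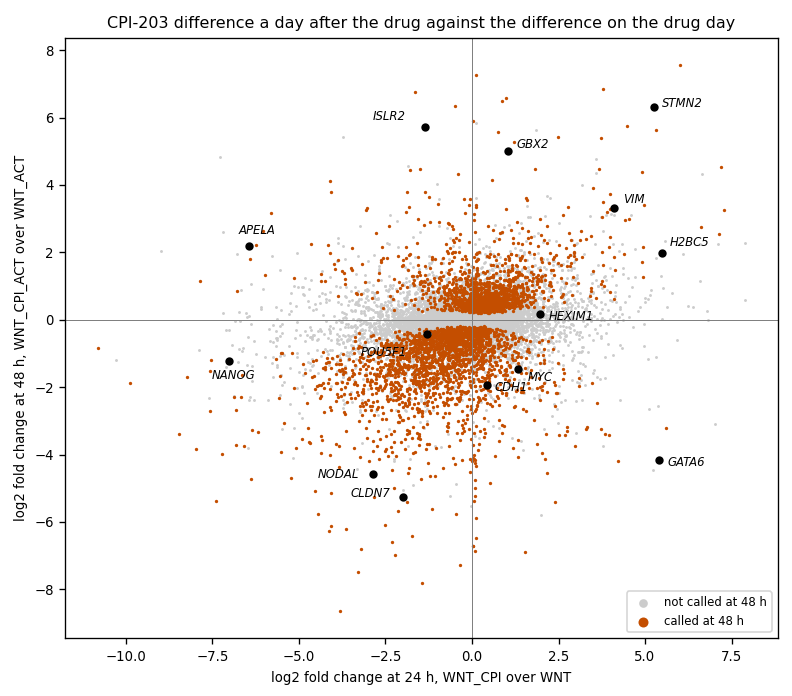
Log2 fold change at 48 h (WNT_CPI_ACT over WNT_ACT, vertical axis) against that at 24 h (WNT_CPI over WNT, horizontal axis) for the genes tested; orange points are called at 48 h, grey ones are not, and labelled genes are black. NANOG sits at -7.03 on the 24 h axis and -1.21 on the 48 h axis, while CLDN7 and CDH1 lie lower at 48 h (-5.27 and -1.92) than at 24 h (-2.0 and 0.45).

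Levels in the other RNA groups describe where these genes stand without Wnt3a or Activin A; no test was made. With Activin A on day 2 but no Wnt3a on day 1, the E7_ACT group, TBXT stood at 0.386 and 0.229 CPM, NODAL at 64.0 and 41.5 CPM and GBX2 at 1.11 and 1.78 CPM. With Wnt3a on day 1 and no Activin A, the WNT_E7 group, GBX2 stood at 81.1 and 19.4 CPM and NODAL at 6.96 and 38.5 CPM. GBX2 in WNT_CPI_ACT (91.5 and 173 CPM) was thus above both WNT_E7 values and far above the E7_ACT values. CLDN7 stood at 63.7 and 104 CPM in E7_ACT and at 36.3 and 81 CPM in WNT_E7, all above the WNT_CPI_ACT values of 1.61 and 2.87 CPM. VIM stood at 23.0 and 41.5 CPM in E7_ACT and at 30.2 and 20.2 CPM in WNT_E7, below the 335 and 387 CPM of WNT_CPI_ACT.

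Genes of early response, the cell cycle and metabolism were counted in the same way. The called shares were 42.9% (immediate early), 26.7% (S phase), 6.25% (G2 and M phase), 25% (p53) and 29.4% (cholesterol). Of all genes tested 20.2% were called. Of 14 immediate early genes 6 were lower and none higher, and none of the 6 was called without the block. JUN, an AP-1 subunit, had 1.63 and 3.21 CPM in WNT_CPI_ACT and 11.4 and 6.61 CPM in WNT_ACT (-1.94, SE 0.44, adjusted p = 0.0115; 0.065 without the block), and it was not called without replicate 1 of WNT_CPI_ACT (-1.53) or of WNT_ACT (-1.32). Of 15 S phase genes 4 were higher, among them TYMS, thymidylate synthase, with 100 and 90.0 CPM in WNT_CPI_ACT and 49.2 and 43.1 CPM in WNT_ACT (1.04, SE 0.09, adjusted p = 4.65e-05; 0.0085 without the block). Of 16 genes of G2 and M phase 1 was higher (TOP2A, not called without replicate 2 of WNT_CPI_ACT at 0.40 or of WNT_ACT at 0.38), of 16 p53 targets 4 were higher, and of 17 cholesterol synthesis genes 5 were higher, with none lower in any of the 3 lists. The p53 and cholesterol medians were 0.25 and 0.28, none of these genes was called without the block, and 1 cholesterol gene was higher without replicate 1 of WNT_CPI_ACT.

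**Figure D5:**
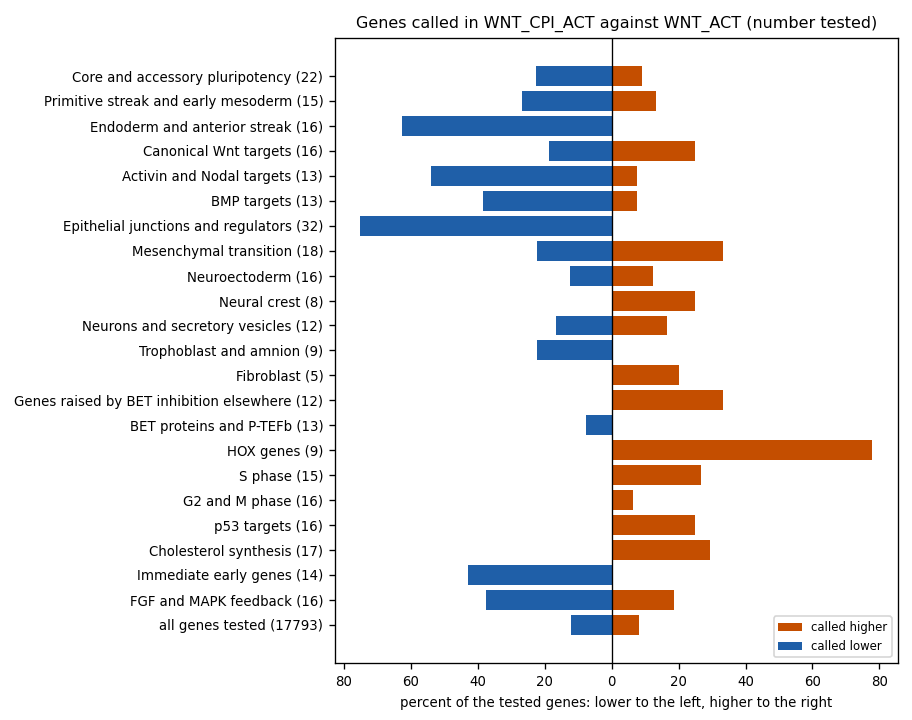
Percent of the tested genes of each list called at 48 h, with bars to the left for genes lower in WNT_CPI_ACT and bars to the right for genes higher; all genes tested are shown for comparison (12% lower, 8.13% higher). The epithelial bar reaches farthest to the left (24 of 32 genes) and the HOX bar farthest to the right (7 of 9 tested genes). Some of these HOX genes can be tested through their level in WNT_CPI_ACT alone.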

How the data were processed

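RNA was sequenced from cells lysed in Trizol. The authors deposited raw counts per gene in 2 tables (27360 and 27348 genes, of which 27348 were joined and 27322 have a RefSeq symbol). Per the submitters' processing notes, featureCounts, DESeq2, Bowtie2, MACS2 and deepTools were used. The RNA aligner and build are not given in the sources used here. The peak list was not used.

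Counts were scaled by TMM (factors 0.945 to 1.05) and fitted with edgeR 4.0.16 (R 4.3.3) after filterByExpr, on 15 of 16 RNA libraries (36268324 to 43347733 counts) of 8 groups, with the quasi-likelihood test, group and replicate number as terms (6 residual degrees of freedom) and Benjamini-Hochberg adjustment over 17793 genes. The remaining library's column correlated with no other (largest absolute rho 0.00657) in its table's gene order, and at 0.954 to 0.986 in the other table's order. Deviations of same-numbered libraries from their group means correlated at r = 0.497 to 0.935 over 21 pairs of groups (11307 genes of at least 5 CPM; 0.83 for the 48 h pair), so the number was taken to pair samples. The biological coefficient of variation was 0.122 with the block and 0.29 without. Tested on simulated data for this comparison (17650 genes), the fit recovered 59% of 2-fold and 77% of 4-fold changed genes, with 7 false calls. The simulated counts were drawn from this same fit, block included, with 100 genes changed at each fold, against 20.2% of genes called in the data. The simulation therefore cannot check the block or the rate of false calls in the data.

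The text names the 12 largest called rises and falls that moved the same way in both pairs with at least 5 CPM in the higher group, up to 4 called genes per list, the markers and a set of lineage genes. Some genes that fit this rule are not reported here. Genes beyond it were chosen after their values were seen. The members and lists were chosen with earlier results of these data known. Alternatives were no block, DESeq2 1.42.0 (size factors, Wald test), library totals, other filters, only the groups compared, each library left out, and the left-out library included.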

Additional observations from a re-analysis of the deposited data

Results flagged for a closer look

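Each gene below was picked out because the CPI-203 difference itself differed between the days by the edgeR test of the change (WNT_CPI_ACT over WNT_ACT at 48 h minus WNT_CPI over WNT at 24 h, log2 scale), as it did for 33.3% of all genes. Of 97 named genes 54 were picked out: 31 with a negative change and 23 with a positive one. No test for outlying samples was run in these groups of 2 libraries.

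Among endoderm, streak and signalling genes the change was -9.56 for GATA6, -6.72 for GSC, -6.12 for LHX1, -5.01 for MIXL1, -3.15 for BMP2, -3.31 for NOTUM, -2.46 for TNFRSF19 and -1.94 for DUSP5. The largest of these include a 24 h ratio of very low levels, so their size is uncertain. At 24 h GATA6 had 1.59 and 1.22 CPM in WNT_CPI and 0.047 and 0.0562 CPM in WNT (SE of the change 1.74). GSC had 0.294 and 0.293 CPM in WNT_CPI and 0.094 and 0.0562 CPM in WNT (SE 1.84). It was positive for ID1 (1.26), RNF43 (1.56), FOXA3 (1.75), FST (3.50) and FOXH1 (3.57). Epithelial and mesenchymal genes changed by -3.27 (CLDN7), -2.79 (ST14), -2.37 (CDH1), -1.55 (SNAI2) and 1.38 (MMP14). Among the other largest falls at 48 h the change was -4.17 for MMP9, -3.25 for BICDL2 and -2.58 for TACR1.

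Genes of other fates changed by -4.58 (HOXD1), -4.28 (RAX), -3.81 (GATA2), -2.67 (VGF), -2.05 (SYP), -0.56 (ZIC2), 1.43 (SCG3), 3.72 (POSTN), 3.96 (GBX2), 4.35 (HOXB1), 4.83 (HOTAIRM1), 5.17 (IRX1), 5.89 (LOC283731), 5.97 (SPATA31A7), 6.85 (OLIG3) and 7.09 (ISLR2). RAX rested on 3 and 0 counts in WNT_CPI_ACT and 12 and 7 in WNT_ACT, and GATA2 on 1 and 2 against 4 and 14. HOXD1 had 5 and 2 counts in WNT_ACT, and 0.047 and 0 CPM in WNT at 24 h. HOXB1 had 0.098 and 0.147 CPM in WNT_CPI. LOC283731 had 0.294 and 0.147 CPM in WNT_CPI and 0.259 and 0.169 CPM in WNT. The size of these changes is therefore uncertain. Pluripotency genes changed by 0.88 (POU5F1), 1.04 (SOX2), 3.52 (USP44) and 5.82 (NANOG).

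Early response and BET-linked genes changed by -4.35 (JUN), -3.66 (H3C14), -3.53 (H2BC5), -2.98 (ELL2), -2.79 (MYC), -2.67 (H2BC4), -2.32 (JUND) and -1.78 (HEXIM1). Cell cycle, p53 and sterol genes changed by -0.72 (SESN1), -0.29 (SQLE), 0.63 (TYMS), 0.64 (FDPS) and 0.85 (TOP2A).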

How the results depend on the processing

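None of the 97 genes chosen by the naming rule changed sign under an alternative that tested it. Of 42 other genes given in the text, 5 did when 1 library was left out, none of them called in the main design: the values ran from -0.16 to 0.37 for AXIN2, -0.56 to 0.21 for GRHL1, -0.08 to 0.18 for DPPA4, -1.32 to 3.96 for PAX6 and -0.12 to 0.95 for CDH2, AXIN2 being -0.01 without replicate 1 of WNT_CPI_ACT. Without the replicate block the counts were 648 called at 48 h (179 higher, 469 lower), 548 at least 2-fold, 4722 at 24 h and 1796 for the change between days, and 61 of 96 called genes chosen by the rule and 20 of 33 others were lost. Including the left-out library in the other table's gene order gave 955 higher at 48 h. Leaving out 1 library gave 1773 to 3285 called at 48 h, 545 to 1398 higher, 1228 to 1887 lower, 1055 to 1767 at least 2-fold, 7020 to 7547 at 24 h and 4246 to 5325 for the change. Higher calls were 545 without replicate 2 of WNT_CPI_ACT, 819 without replicate 1 of WNT_ACT and 937 without its replicate 2; the cause was not tested. Genes chosen by the rule that were lost numbered 13 and 21 without replicates 1 and 2 of WNT_CPI_ACT, 30 and 17 without those of WNT_ACT, 7 under the DESeq2 Wald test, 3 with only the groups compared, 2 with no filter, 1 with DESeq2 size factors, none with library totals or the stricter filter, and 7 with the left-out library; the stricter filter tested 83 of them and the fit of only the groups compared 94. Of the 44 counts of list members (22 lists, each direction), 26 moved by over 1.5 times without the block, 11 and 12 without replicates 1 and 2 of WNT_CPI_ACT, 14 and 11 without those of WNT_ACT, 12 with only the groups compared, 8 with the stricter filter, 6 under the Wald test, 4 with the left-out library, 3 each with library totals and no filter, and none with DESeq2 size factors. Higher HOX genes were 1 and lower endoderm genes 6 with the stricter filter, which tests fewer genes. With only the groups compared, 4 HOX and 2 epithelial genes were higher. All values rest on 2 libraries per group.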

Other observations

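Opposite calls on both days, with a called change and at least 5 CPM, were found for 376 of the 17793 genes tested. The genes given here were chosen after their values were seen, and no explanation is offered. TNC, the matrix protein tenascin C, had 742 and 1342 CPM in WNT_CPI_ACT and 140 and 316 CPM in WNT_ACT at 48 h (2.25, SE 0.22, adjusted p = 0.000122; 0.14 without the block). At 24 h TNC had 6.30 and 10.1 CPM in WNT_CPI and 120 and 321 CPM in WNT (-4.64). APELA, a peptide ligand of the apelin receptor, had 77.3 and 91.2 CPM in WNT_CPI_ACT and 13.3 and 25.3 CPM in WNT_ACT (2.19, SE 0.26, adjusted p = 0.000386; 0.039 without the block). At 24 h APELA had 0.759 and 1.54 CPM in WNT_CPI and 73.7 and 130 CPM in WNT (-6.46). HES3 (3.18 at 48 h, -5.81 at 24 h), SORBS2 (2.22 and -4.16), GJA5 (0.86 and -6.79) and the noncoding D21S2088E (1.33 and -5.99) showed the same order of signs, and the 48 h groups of GJA5 overlapped. Without the block none of HES3, SORBS2, GJA5 and D21S2088E was called at 48 h (adjusted p = 0.0625, 0.0856, 0.666 and 0.0652). HES3 was not called at 48 h without replicate 2 of WNT_CPI_ACT (2.29) or replicate 1 of WNT_ACT (2.63), nor GJA5 without replicate 1 of WNT_CPI_ACT (0.62) or of WNT_ACT (0.68).

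GADD45B, a stress and growth-arrest gene, had 2.59 and 1.89 CPM in WNT_CPI_ACT and 25.2 and 14.8 CPM in WNT_ACT at 48 h (-3.18, SE 0.54, adjusted p = 0.00282; 0.031 without the block). At 24 h GADD45B had 27.4 and 34.0 CPM in WNT_CPI and 2.63 and 3.51 CPM in WNT (3.32). SHISA2 (-2.57 at 48 h, 2.40 at 24 h), PLXNA2 (-1.72 and 3.08) and the Wnt receptor gene FZD8 (-1.75 and 2.62) had the same order of signs. Without the block none of SHISA2, PLXNA2 and FZD8 was called at 48 h (adjusted p = 0.0614, 0.158 and 0.0879). FZD8 was not called at 48 h without replicate 2 of WNT_CPI_ACT (-1.49) or replicate 1 of WNT_ACT (-0.77).

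LRAT, which esterifies retinol, had 102 and 123 CPM in WNT_CPI_ACT and 17.7 and 18.0 CPM in WNT_ACT (2.66, SE 0.18, adjusted p = 1.4e-05; 0.0011 without the block). At 24 h LRAT had 206 and 207 CPM in WNT_CPI and 96.7 and 91.4 CPM in WNT. STRA6, a retinol uptake receptor, had 50.9 and 114 CPM in WNT_CPI_ACT and 20.6 and 26.8 CPM in WNT_ACT (1.80, SE 0.40, adjusted p = 0.0108; 0.052 without the block). The groups of both genes were apart, but STRA6 was not called without replicate 2 of WNT_CPI_ACT (0.99) or replicate 1 of WNT_ACT (1.61). MEIS1, a relative of MEIS2, changed by 2.66 (SE 0.42, adjusted p = 0.00197), and WLS, which carries Wnt ligands to the cell surface, by 1.34 (SE 0.23, adjusted p = 0.00282).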
